A study of Canis lupus familiaris with 36 samples.

Results

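The MHC class I antigen processing pathway was followed through 10 genes in canine lymphoma: B2M, DLA88, TAP1, TAP2, TAPBP, ERAP1, PSMB8, PSMB9, PSMB10 and NLRC5. The genes were taken by symbol from the platform annotation, and all 10 had a probe set among the 15115 genes that carry 1 symbol per probe set. All 10 were also among the 7500 genes tested, which had a log2 intensity of at least 4 in at least 4 of 34 dogs.

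RNA of mechanically dissociated and filtered primary tumours from 35 dogs was hybridised to 36 Affymetrix arrays, with 1 DLBCL dog measured on 2 arrays that were averaged. The B-phenotype tumours comprised 2 labelled BL (high grade, age at diagnosis 2 to 5), 10 labelled DLBCL, diffuse large B-cell lymphoma (high grade, age 4 to 14), and 5 labelled MZL, marginal zone lymphoma (low grade, age 4 to 10). The T-phenotype tumours comprised 4 labelled LBT (high grade, age 3 to 10), 4 labelled PTCL, peripheral T-cell lymphoma (3 high and 1 intermediate grade, age 6 to 14), and 9 labelled TZL, T-zone lymphoma (low grade, age 7 to 11). A single low-grade tumour labelled NBNT, neither B nor T (age 8), entered no test. The labels state no unit for age, do not spell out BL and LBT, and name no site of the tumours. Golden Retrievers made up 24 of the 35 dogs, among them 8 of the 9 TZL dogs and 1 of the 4 PTCL dogs, and 20 dogs were female. All groups are tumours, so no level below is relative to normal lymphoid tissue. Each array measured a mixed cell suspension, in which fewer cells of a type and less RNA per cell cannot be told apart.

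The labelled lineages matched their markers. All 8 tested T-cell markers were lower in B than in T tumours, and all 7 tested B-cell markers were higher. A set of 6 arrays stood apart by a bright 3′ actin control (at least 14.03, against at most 12.45 on the other 30 arrays, log2), and it held 2 DLBCL dogs (replicates 4 and 9), 1 PTCL dog (replicate 3) and 3 TZL dogs (replicates 1, 2 and 7). Within subtypes, 1677 of the 7500 genes differed between this array set and the other dogs at adjusted p under 0.05. The differences of the 10 genes and the list counts below were therefore also computed with the array set as a block and without it.

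Class I molecules show peptides from inside the cell to CD8 T cells. Proteasomes cut proteins into peptides, the TAP transporter carries the peptides into the endoplasmic reticulum, aminopeptidases trim them there, and tapasin holds the empty heavy chain and beta-2 microglobulin at the transporter until a fitting peptide is bound. Lymphocytes express the pathway strongly, interferon gamma raises it further, and the nuclear protein NLRC5 activates the promoters of its genes; reduced class I presentation is a known feature of some human lymphomas.

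In the peptide-loaded complex, DLA88 encodes the main classical class I heavy chain of the dog and B2M the light chain that all class I heavy chains share. TAP1 and TAP2 pair to form the peptide transporter, TAPBP encodes tapasin, and ERAP1 trims peptides at their amino end. PSMB8, PSMB9 and PSMB10 are the catalytic subunits that replace the standard ones in the immunoproteasome. In the RefSeq gene order for the dog (assembly UU_Cfam_GSD_1.0), TAP2, PSMB8, TAP1 and PSMB9 stood next to each other between the class II genes DLA-DOB and DLA-DMB. TAPBP and DLA88 lay on the same chromosome, while ERAP1 (beside ERAP2), PSMB10 and NLRC5 lay on others, and B2M was not matched to this table.

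The 10 genes had 21 probe sets of their own, and 9 genes had more than 1. A gene is represented below by its brightest probe set, and values are log2 of the authors' GCRMA intensity. Since probes differ in affinity, levels are compared between dogs and never between genes. The genes differed in how far they spread over the tumours. The 6 subtype means lay within 0.40 for TAP2 and within 0.56 for B2M, against 1.69 for PSMB8, 1.88 for PSMB10 and 2.53 for NLRC5. In a moderated F test over the 6 subtypes (limma), 5 of the 10 genes passed at adjusted p under 0.05, beside 56.8% of all genes tested. They were NLRC5 (adjusted p = 1.17e-07), PSMB8 (3.25e-05), PSMB10 (5.94e-05), B2M (0.000406) and TAP1 (0.000469), and TZL had the highest mean of all 5.

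**Figure D1:**
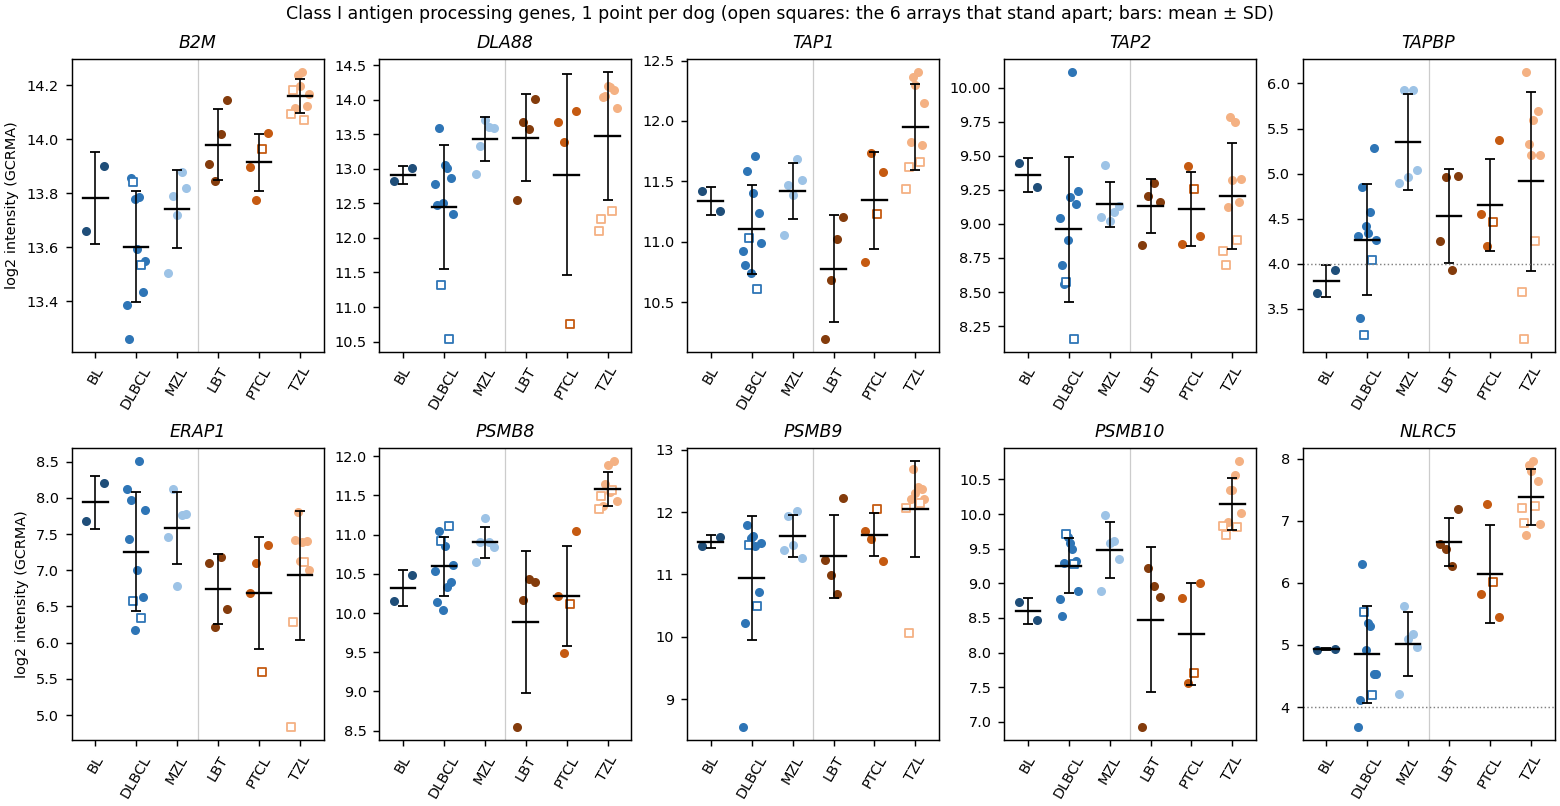
Log2 intensity of each of the 10 genes (vertical axes, scales differ between panels) in each dog, by subtype label, B labels left of the grey line and T labels right of it. Filled points are single dogs, open squares are dogs of the set of 6 arrays that stood apart, bars are the mean ± SD and the dotted line is the minimum level of 4. PSMB8 in TZL lies between 11.32 and 11.94, above every dog of the other 5 subtypes, and the open squares lie low for DLA88.

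B tumours carried far less NLRC5 transcript and slightly less B2M than T tumours, and somewhat more ERAP1. These were 3 genes called of 10, beside 46.5% of all genes tested, so the share of class I genes that differed was not above that of the array as a whole. By the probe sets that represent them, the transporter, tapasin and immunoproteasome genes did not pass the test between the lineages. An RNA quality measure, the actin 3′ minus 5′ signal, moved with lineage in part: its median was 7.34 in DLBCL, 7.31 in BL and 5.16 in MZL dogs, against 4.73 in LBT, 6.26 in PTCL and 4.89 in TZL dogs (log2). Adjusted for it and the same GAPDH signal, the B minus T difference was -1.85 for NLRC5 (adjusted p = 6.2e-06) and -0.35 for B2M (adjusted p = 0.00228).

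NLRC5, the class I transactivator, ranged over 3.68, 4.94 and 6.31 (lowest, median and highest) in the 17 B dogs, against 5.45, 6.96 and 7.96 in the 17 T dogs. Below every T dog lay 14 of the 17 B dogs, and the overlap came from DLBCL replicates 3 and 4 and MZL replicate 2 on one side and the lower PTCL and LBT dogs on the other. The mean was 4.91 ± 0.65 in B and 6.92 ± 0.73 in T dogs (SD, n = 17 each), which made NLRC5 4.03-fold lower in B (log2 difference -2.01, SE 0.23, adjusted p = 1.95e-08, limma with Benjamini-Hochberg adjustment). Within the array set alone, with 2 B and 4 T dogs, the difference was -1.99. The second NLRC5 probe set was also lower in B (-1.06, adjusted p = 0.00262), but it lay below the minimum of 4 in 16 of the 17 B and 9 of the 17 T dogs.

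B2M ranged over 13.26, 13.72 and 13.90 in B dogs, against 13.77, 14.09 and 14.25 in T dogs. Below every T dog lay 9 of the 17 B dogs, and the T dogs in the range of the others were of the LBT and PTCL labels, while every TZL dog lay above every B dog. B2M was 1.32-fold lower in B (log2 difference -0.40, SE 0.08, adjusted p = 6.7e-05), and its second probe set was lower as well (-0.26, adjusted p = 0.00447). The highest value of any probe set on any array was 15.09, so B2M lies near the top of the scale.

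ERAP1, the trimming peptidase, ranged over 6.17, 7.68 and 8.51 in B dogs, against 4.83, 7.11 and 7.80 in T dogs. The groups overlapped over most of their range. Its log2 difference was 0.61 (SE 0.25, adjusted p = 0.0433), or 1.52-fold higher in B, and it missed the threshold under 8 of 14 alternatives, among them the array set as a block (0.47, adjusted p = 0.0559) and adjustment for the actin and GAPDH 3′ minus 5′ signals (0.39, adjusted p = 0.225). It also missed it on leaving out any 1 of 17 dogs, with adjusted p between 0.0216 and 0.0766 over all 34 such fits: DLBCL replicates 1, 2, 3, 8 and 11, MZL replicates 1, 2, 4 and 5, both BL dogs, LBT replicates 2 and 4, PTCL replicates 1 and 3, and TZL replicates 1 and 2. The second ERAP1 probe set was higher in B too (0.67, adjusted p = 0.00909).

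DLA88, the heavy chain, ranged over 10.54, 12.92 and 13.70 in B dogs, against 10.75, 13.68 and 14.19 in T dogs. It was the gene most tied to the array set, in which it was lower by 2.03 on the log2 scale within subtypes (adjusted p = 1.46e-09). The lineage difference was -0.54 (SE 0.30, adjusted p = 0.14) over all dogs, -0.78 (adjusted p = 0.000301) with the array set as a block, -0.74 (adjusted p = 9e-04) without it and -0.95 within it. Leaving out PTCL replicate 3 alone, the lowest T dog and one of the array set, brought it to -0.71 (adjusted p = 0.03).

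The remaining genes overlapped broadly between the lineages. PSMB9 ranged over 8.55, 11.47 and 12.01 in B dogs and 10.06, 12.06 and 12.70 in T dogs, with a log2 difference of -0.57 (SE 0.26, adjusted p = 0.0721) that passed without TZL replicate 2 or LBT replicate 3. TAP1 ranged over 10.61, 11.26 and 11.71 in B dogs and 10.20, 11.62 and 12.40 in T dogs (-0.31, SE 0.17, adjusted p = 0.144, passing at 0.0397 without LBT replicate 1). PSMB8 ran between 10.03 and 11.21 in B dogs, wholly inside the T range of 8.54 to 11.94. PSMB10 did the same, with B dogs from 8.46 to 9.99 inside a T range of 6.92 to 10.77. Its second probe set did pass and was lower in B (-0.97, adjusted p = 0.0174), with all 17 B and 11 of the 17 T dogs below the minimum. TAP2 ran from 8.16 to 10.11 in B dogs and 8.69 to 9.79 in T dogs. TAPBP, measured close to the minimum, ran from 3.21 to 5.93 in B dogs, 4 of them below 4, and from 3.17 to 6.12 in T dogs, 3 of them below 4.

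Genes around the pathway were called in both directions between the lineages. TAPBPL, which encodes the peptide editor TAPBPR, was 4.26-fold lower in B (log2 difference -2.09, adjusted p = 9.72e-07). SEC61A1, a channel subunit of the endoplasmic reticulum, and PDIA3, the chaperone ERp57 of the loading complex, were lower by 0.64 and 0.58 as well. With TAPBPL these were the 3 called of 12 genes of peptide loading, trimming and transport tested, named loading genes below. The list counts of this comparison stand beside 46.5% of all genes called. Of 14 genes that control class I transcription, 5 were lower in B (STAT3, NFYB, CREB1, IRF1 and NFYA) and 1 was higher (RFXANK, a subunit of the RFX complex through which NLRC5 acts; 0.76, adjusted p = 0.00119). PSME3 (0.57) and PSMA7 (0.30) were the 2 proteasome genes called of 11, both higher in B, and of the 4 further class I chains CD1C was higher (2.02, adjusted p = 0.00529) and DLA-64 lower (-1.06, adjusted p = 0.00722). Of 22 interferon-induced genes tested, 2 were higher and 1 lower in B, with a median difference of 0.47 beside 0.03 over all genes (2 to 5 called on leaving out single dogs, the 5 without DLBCL replicate 2). The 1 lower gene was GBP5, an interferon-gamma-induced guanylate-binding protein (-2.5, adjusted p = 0.00259). Besides the lineage markers, 1 of 11 macrophage and dendritic markers was higher (C1QA) and 1 lower (FLT3) in B tumours. The others went both ways without a call, for example CD14 (-0.73) and CD163 (0.53). Of 3 endothelial markers 1 was lower (ENG), while PECAM1 had 0.67 and was not called. ENG lay below 4 in all B dogs and FLT3 in all DLBCL and MZL dogs. The part of these cells in the class I differences was not tested.

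**Figure D2:**
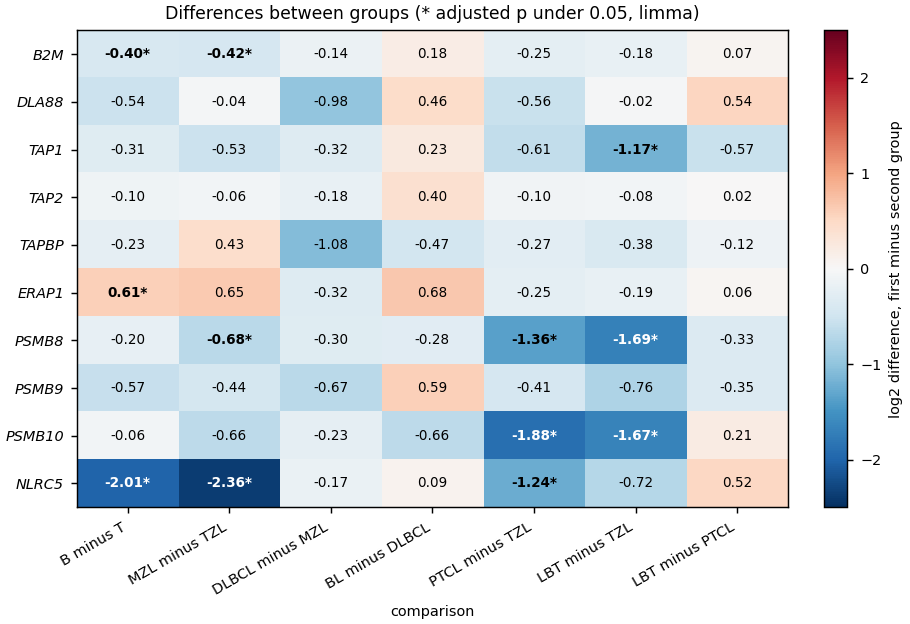
Log2 difference of each gene (rows) in 7 comparisons (columns), first minus second group of the column name, as colour and as printed value. An asterisk marks adjusted p under 0.05. The called cells are PSMB8 and PSMB10 in both contrasts of a higher-grade T label against TZL, NLRC5 and B2M in the B against T and MZL against TZL columns, and 4 single cells.

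LBT tumours had lower TAP1, PSMB8 and PSMB10 than TZL tumours. Both the transporter subunit and these immunoproteasome subunits were 2.25- to 3.23-fold lower, with no overlap between the 4 LBT and the 9 TZL dogs. The share of all tested genes without such overlap is not given here. TAP1, PSMB8 and PSMB10 were 3 called of 10, all lower, beside 12.4% of all tested genes called lower in this comparison (30.1% in either direction). The chain genes B2M and DLA88 and the remaining genes did not pass.

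PSMB8 had 8.54, 10.17, 10.44 and 10.39 in the 4 LBT dogs, against 11.32, 11.54 and 11.94 (lowest, median and highest) in the 9 TZL dogs. LBT replicate 1 lay far below the other LBT dogs, and every LBT dog lay below every TZL dog. The mean was 9.89 ± 0.90 in LBT (n = 4) and 11.58 ± 0.22 in TZL (n = 9), a difference of -1.69 (SE 0.27, adjusted p = 2.06e-05). Without LBT replicate 1 it was -1.25.

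PSMB10 had 6.92, 9.22, 8.96 and 8.80 in LBT dogs, against 9.70, 10.02 and 10.77 in TZL dogs. The same LBT dog was lowest, and the groups did not overlap. The difference was -1.67 (SE 0.32, adjusted p = 0.000226), and -1.15 without LBT replicate 1. The second probe sets of PSMB8 (-1.66, adjusted p = 0.000136) and PSMB10 (-2.0, adjusted p = 0.0012) were lower as well, although that of PSMB10 was under the minimum in all 4 LBT and 3 of the 9 TZL dogs.

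TAP1 had 10.20, 10.68, 11.02 and 11.21 in LBT dogs, against 11.44, 11.82 and 12.40 in TZL dogs, again without overlap. Its difference was -1.17 (SE 0.22, adjusted p = 0.000182), and its 2 other probe sets gave -1.49 and -1.51. TAP2, its partner in the transporter, had 8.84, 9.21, 9.30 and 9.16 in LBT dogs, inside the TZL range of 8.69 to 9.79. All calls of PSMB8, PSMB10 and TAP1 held under all 14 alternatives and without any 1 dog.

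PSMB9 had 11.24, 11.00, 10.69 and 12.23 in LBT dogs, against 10.06, 12.21 and 12.70 in TZL dogs. The lowest value of both groups belonged to a TZL dog of the array set, replicate 2, so the groups overlapped. NLRC5 had 6.63, 6.55, 6.27 and 7.19 in LBT dogs, against 6.76, 7.23 and 7.96 in TZL dogs, with 3 LBT dogs below all TZL dogs. B2M had 13.91, 13.85, 14.02 and 14.14 in LBT dogs, against 14.07, 14.17 and 14.25 in TZL dogs, with 1 LBT dog among the TZL dogs.

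DLA88 had 12.54, 13.67, 13.57 and 14.01 in LBT dogs, against 12.11, 14.04 and 14.19 in TZL dogs. The 3 TZL dogs of the array set held 12.11 to 12.40 and the other 6 held 13.88 to 14.19. The difference of -0.02 over all dogs was -0.70 (adjusted p = 0.0268) with the array set as a block and -0.63 (adjusted p = 0.0527) without it. TAPBP had 4.25, 4.97, 3.94 and 4.97 in LBT dogs, against 3.17, 5.20 and 6.12 in TZL dogs. Its difference of -0.38 was not called over all dogs and was -0.99 (adjusted p = 0.0209) without the array set. ERAP1 had 7.11, 6.21, 7.19 and 6.46 in LBT dogs, within the TZL range of 4.83 to 7.80.

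Other proteasome genes were called in both directions. PSME1 and PSME2, the subunits of the interferon-inducible PA28 activator, were lower in LBT by 1.09 (adjusted p = 0.000108) and 0.87 (adjusted p = 0.00126). PSMB5 and PSMB6, standard catalytic subunits that PSMB8 and PSMB9 replace, were higher in LBT by 0.75 (SE 0.21, adjusted p = 0.00631) and 0.45 (SE 0.17, adjusted p = 0.0435), and PSMB7 was not tested. PSME3, the nuclear activator, and the shared ring subunits PSMA1, PSMA5 and PSMA7 were higher as well. Of the 11 listed genes tested, 6 were higher and 2 lower in LBT, with a median difference of 0.44 beside 0.05 over all genes. This list had 5 calls without LBT replicate 2 or without LBT replicate 4.

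**Figure D3:**
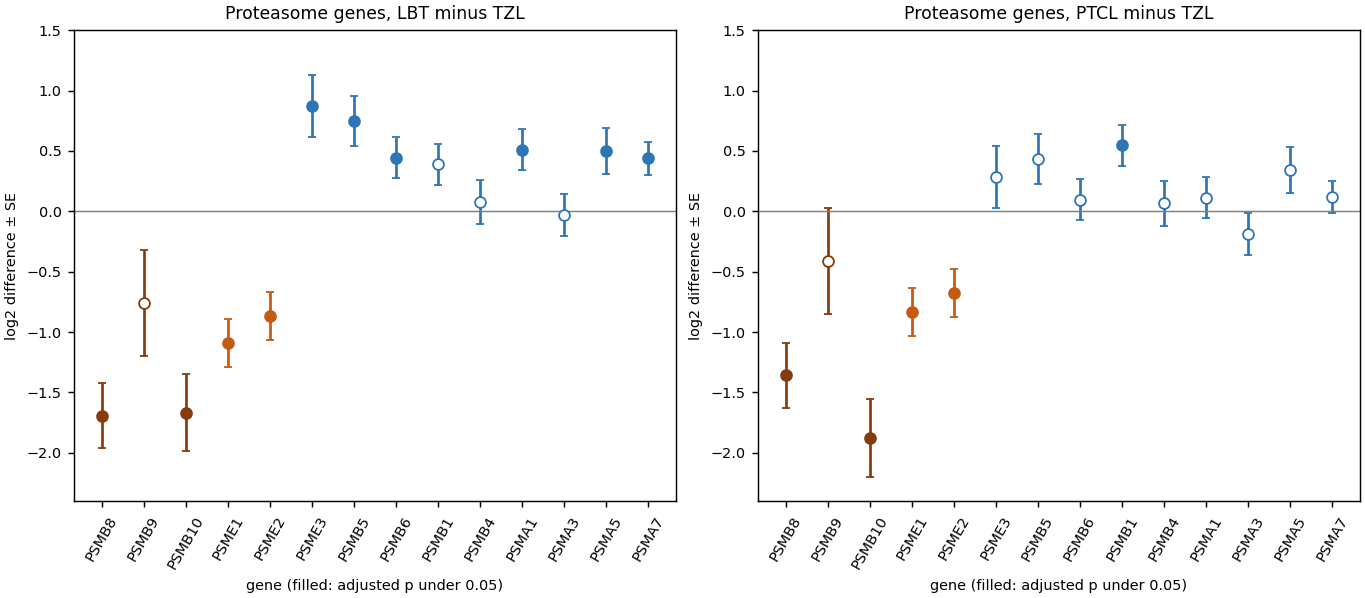
Log2 difference ± SE (limma) of proteasome genes in LBT minus TZL (left) and PTCL minus TZL (right). Filled points passed adjusted p under 0.05. The immunoproteasome subunits PSMB8 and PSMB10 and the activator subunits PSME1 and PSME2 lie below 0 in both panels, while PSMB5 lies at 0.75 on the left and 0.43 on the right.

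Interferon-induced genes were low in LBT beside the class I genes. Of 22 tested, 17 were lower than in TZL and none higher, with a median difference of -2.78 beside 0.05 over all genes; the count stayed at 17 with the array set as a block or left out and was 12 to 19 on leaving out single dogs. GBP5 ran from 2.15 to 5.37 in the 4 LBT dogs, 3 of them below the minimum, against 7.87 to 9.31 in the 9 TZL dogs (-5.39, adjusted p = 4.71e-09). PARP9, an antiviral ADP-ribosyltransferase, ran from 3.24 to 6.31 in LBT, against 7.93 to 9.55 in TZL (-3.88, adjusted p = 9.97e-06). IRF1, the interferon-induced activator of class I promoters, ran from 3.83 to 6.84 in LBT, against 8.61 to 9.63 in TZL (-3.27, adjusted p = 2.26e-05). IFNGR1, a chain of the interferon gamma receptor, was lower by 2.49 (adjusted p = 6.36e-06).

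Of the other genes of class I transcription, 6 of 14 were lower in LBT and 4 higher. CIITA, the class II counterpart of NLRC5, was lower (-2.53, adjusted p = 0.00265), and EZH2, a histone methyltransferase that represses class I genes in some tumours, was higher (2.25, adjusted p = 2.41e-06). Of the 4 further class I or class I-like chains tested, DLA-79 (-3.13), DLA-64 (-1.53) and FCGRT (-3.15), the neonatal Fc receptor, were lower, and CD1C (2.75), a lipid-presenting molecule, was higher. Of 12 loading genes, TAPBPL, SEC61B and SEC61A1 were lower and the peptidase gene BLMH was higher, beside 30.1% of all genes called in either direction. Single LBT dogs moved these counts: the calls on the transcription list numbered 5 without replicate 2, those on the chain list 2 without replicate 1 or 3, and those on the loading list 1 without replicate 1 and 2 without replicate 3. DLA-64 and DLA88 are near-identical over part of their length, and 2 further probe sets are annotated to both. One of these shared sets was lower in LBT (-2.64, adjusted p = 0.013) and the other was not called (-0.28, adjusted p = 0.143).

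Markers of other cells moved in this comparison too. Of 7 B-cell markers tested, 4 were lower in LBT (mean over the 8 measured markers 2.44 to 5.78 in LBT dogs and 3.25 to 7.62 in TZL dogs), with BLK below 4 in all LBT dogs. PAX5, measured but not tested, lay below 4 in all dogs of every label, B labels included. Of 6 cytotoxic lymphocyte markers, 3 were lower (3.21 to 5.41 in LBT dogs and 3.83 to 7.90 in TZL dogs), with GZMA, KLRD1 and EOMES below 4 in all LBT dogs. Of 11 macrophage and dendritic markers, CD14 was higher and FLT3 lower (3.84 to 4.90 in LBT dogs and 2.94 to 7.08 in TZL dogs), with CD68, CD163, MSR1 and MRC1 below 4 in all LBT dogs. CD163 and MSR1 lay below 4 in all TZL dogs as well. Of 3 endothelial markers 1 was higher in LBT (ENG, below 4 in all TZL dogs), while PECAM1 had -1.80 and was not called. Of 8 T-cell markers 1 was lower (CD5), and the median difference of that list was 0.34 beside 0.05 over all genes. The part of these cells in the differences of TAP1, PSMB8 and PSMB10 was not tested.

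PTCL tumours were set against the same 9 TZL dogs as LBT, so that both comparisons share them. PSMB8, PSMB10 and NLRC5 were lower in PTCL, 3 called of 10 beside 6.07% of all genes called lower and 7.6% higher (13.7% in either direction). All 10 differences had a negative sign, with a median of -0.49 beside 0.03 over all genes. The share of all genes with a negative sign is not given here, and the 10 signs come from the same dogs. The dogs of PTCL and TZL did not overlap for PSMB8, PSMB10 or B2M, of which B2M was not called (adjusted p = 0.199, limma). The share of all tested genes without such overlap is not given here, so the separation is a description only. Over all genes, 587 were called without PTCL replicate 2, against 1025 with it.

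PSMB10 had 8.79, 7.56, 7.70 and 9.01 in PTCL dogs, against the TZL range of 9.70 to 10.77, a difference of -1.88 (SE 0.32, adjusted p = 0.000208). PSMB8 had 10.22, 9.49, 10.11 and 11.05 in PTCL dogs, against 11.32 to 11.94 in TZL dogs (-1.36, SE 0.27, adjusted p = 0.000817). All PTCL dogs lay below all TZL dogs for both genes, and both calls held under all 14 alternatives and without any 1 dog. Their second probe sets were lower too, by 1.74 for PSMB10 and 1.10 for PSMB8.

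NLRC5 had 5.81, 7.27, 6.02 and 5.45 in PTCL dogs, against 6.76 to 7.96 in TZL dogs. PTCL replicate 2 lay within the TZL range and the other 3 below it. The difference of -1.24 (SE 0.36, adjusted p = 0.0201) missed the threshold without PTCL replicate 1, 3 or 4 (adjusted p up to 0.087), without the array set (-1.33, adjusted p = 0.0693), with sex, breed and age as covariates (adjusted p = 0.0726), and with the mean of both probe sets (-0.85, adjusted p = 0.152).

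TAP1 had 10.83, 11.74, 11.23 and 11.58 in PTCL dogs, against 11.44 to 12.40 in TZL dogs, with 2 PTCL dogs inside the TZL range. Its difference was -0.61 (SE 0.22, adjusted p = 0.0676), and it passed with the array set as a block (-0.64, adjusted p = 0.0287) and without TZL replicate 1 (adjusted p = 0.0448). B2M had 13.90, 13.77, 13.96 and 14.02 in PTCL dogs, against 14.07 to 14.25 in TZL dogs. These ranges did not overlap, but by a margin that did not pass the fit. DLA88 had 13.68, 13.38, 10.75 and 13.84 in PTCL dogs, and PTCL replicate 3, of the array set, stood alone at the low end. Its difference of -0.56 was -0.73 (adjusted p = 0.0314) with the array set as a block, -0.45 (adjusted p = 0.332) without that set, and 0.16 without PTCL replicate 3.

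PSMB9 had 11.70, 11.58, 12.05 and 11.22 in PTCL dogs, TAP2 had 8.85, 9.42, 9.26 and 8.91, TAPBP had 4.56, 4.20, 4.47 and 5.38, and ERAP1 had 6.69, 7.09, 5.60 and 7.35. All of these values lay within the ranges of the 9 TZL dogs given above.

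Around these genes, PSME1 (-0.84, adjusted p = 0.00452) and PSME2 (-0.67, adjusted p = 0.0212) were lower in PTCL and the ring subunit PSMB1 was higher (0.55, adjusted p = 0.028), 3 called of 11. PSMB5 had 0.43 (adjusted p = 0.172) and PSMB6 had 0.10 (adjusted p = 0.776). Of the 12 loading genes TAPBPL (-1.55, adjusted p = 0.00821) and SEC61B (-0.86, adjusted p = 0.0308) were lower and BLMH higher (1.33, adjusted p = 0.0476), with 1 call without the array set or without PTCL replicate 1, 2 or 3. Of the 14 transcription genes EZH2 was higher (2.25, adjusted p = 1.07e-05) and IRF1 lower (-2.58, adjusted p = 0.00104). Of 22 interferon-induced genes, 9 were lower and none higher (median difference -1.99 beside 0.03 over all genes). This count was 9 with the array set as a block and 3 without that set, and it was 4 without PTCL replicate 3, 5 without replicate 2 and 6 without replicate 1. The proteasome list had 1 call without the array set. The macrophage markers CD14 and CD68 were higher in PTCL (2 called of 11, mean over 12 markers 4.57 to 7.42 in PTCL dogs and 2.94 to 7.08 in TZL dogs). The other markers of that list went both ways without a call, for example CSF1R (1.75) and C1QB (-0.83). The endothelial marker KDR (1 called of 3) and the matrix gene FN1 (1 called of 6) were higher too. The part of these cells in the class I differences was not tested.

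LBT and PTCL were not told apart by any of the 10 genes, beside 0.68% of all genes called. TAP1 came nearest, with a difference of -0.57 (SE 0.26, unadjusted p = 0.039, adjusted p = 0.365). With 4 dogs a group the intervals were wide. That of PSMB10 ran from -0.57 to 0.98 and that of NLRC5 from -0.35 to 1.39 (95% limits) on the log2 scale.

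Between the 2 low-grade labels, MZL carried less NLRC5, B2M and PSMB8 than TZL. These were 3 called of 10, all lower, beside 12.3% of all genes called lower (27.5% in either direction). The dogs did not overlap for any of the 3, a description only, since the share of all tested genes without such overlap is not given here. The TZL dogs are those of the comparisons above. The lineage differs here as well, with all 8 T-cell markers lower and 6 of 7 B-cell markers higher in MZL, so that subtype and lineage cannot be told apart. Of 11 macrophage and dendritic markers tested, 1 was higher (C1QA, 2.92, adjusted p = 0.0321) and 1 lower (FLT3, -1.79, adjusted p = 0.0172). The mean over the 12 markers of that list ran from 4.53 to 6.29 in MZL dogs and from 2.94 to 7.08 in TZL dogs. CD14, MSR1, MRC1 and FLT3 lay below 4 in all MZL dogs. In TZL, MSR1 and CD163 lay below 4 in all dogs, and CD14 in most of them. The part of these cells in the class I differences was not tested.

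NLRC5 had 4.22, 5.63, 5.09, 5.18 and 4.96 in the 5 MZL dogs, against 6.76, 7.23 and 7.96 (lowest, median and highest) in the 9 TZL dogs. Every MZL dog lay more than 1 log2 unit below every TZL dog. NLRC5 was 5.15-fold lower in MZL (log2 difference -2.36, SE 0.34, adjusted p = 5.76e-06), held under all 14 alternatives and without any 1 dog. B2M had 13.50, 13.79, 13.72, 13.88 and 13.82 in MZL dogs, against 14.07 to 14.25 in TZL dogs (-0.42, SE 0.11, adjusted p = 0.00687). This call held likewise, and the second B2M probe set was lower by 0.31 (adjusted p = 0.0452).

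PSMB8 had 10.65, 10.91, 11.21, 10.90 and 10.85 in MZL dogs, against 11.32 to 11.94 in TZL dogs. All MZL dogs lay below all TZL dogs, but the difference of -0.68 (SE 0.25, adjusted p = 0.0425) is near the threshold. It missed it under 6 of 14 alternatives, where adjusted p was 0.0667 with the array set as a block and 0.0637 without it. It also missed it on leaving out MZL replicate 1, 2, 4 or 5 or TZL replicate 2, 4, 5, 6, 7 or 8 (adjusted p up to 0.107). TAP1 had 11.06, 11.47, 11.38, 11.69 and 11.51 in MZL dogs, 3 of them inside the TZL range. At -0.53 (SE 0.21, adjusted p = 0.0554) it was just outside the threshold, and it passed under 9 of 14 alternatives (-0.67, adjusted p = 0.0113 with the array set as a block). It passed too without any 1 of LBT replicate 1, DLBCL replicates 3 and 8, TZL replicates 1, 2 and 7 and PTCL replicate 1.

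PSMB10 had 8.88, 9.99, 9.58, 9.61 and 9.36 in MZL dogs, 1 of them inside the TZL range (-0.66, SE 0.30, adjusted p = 0.101, passing at 0.0421 without LBT replicate 1). Its second probe set was lower in MZL (-1.86, adjusted p = 0.0015), with all 5 MZL and 3 of the 9 TZL dogs below the minimum. DLA88 had 12.92, 13.33, 13.70, 13.61 and 13.58 in MZL dogs. These values lay between the 3 TZL dogs of the array set and the other 6 TZL dogs. The difference of -0.04 was -0.72 (adjusted p = 0.017) with the array set as a block and -0.65 (adjusted p = 0.038) without it.

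PSMB9 had 11.40, 11.94, 11.47, 12.01 and 11.26 in MZL dogs and TAP2 had 9.05, 9.43, 9.02, 9.09 and 9.13, all inside the TZL ranges. TAPBP had 4.90, 5.92, 4.96, 5.93 and 5.04 in MZL dogs, the highest subtype mean of this gene. ERAP1 had 7.46, 8.12, 6.79, 7.77 and 7.78, with 1 dog above all TZL dogs, and its second probe set was higher in MZL (1.10, adjusted p = 0.00992).

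GBP5 was the 1 interferon-induced gene of 22 that was lower in MZL, by 4.73 (adjusted p = 1.82e-08), and the list's median was -0.38 beside 0.08 over all genes. IFNGR1 was lower by 2.16 (adjusted p = 1.83e-05). Of the 14 transcription genes 4 were lower, among them STAT3 (-1.67, adjusted p = 5.74e-05) and IRF1 (-2.45, adjusted p = 0.000363), and 2 were higher, EZH2 (1.28, adjusted p = 0.00113) and RFXANK (1.25, adjusted p = 0.00121). Of the 12 loading genes TAPBPL (-2.45, adjusted p = 1.23e-05), SEC61B and SEC61A1 were lower and the chaperone gene CALR was higher (1.21, adjusted p = 0.0415). CD1C was the 1 further class I chain called of 4, and it was higher in MZL (3.86, adjusted p = 0.00112). This list had 2 calls, 1 higher and 1 lower, without the array set and without DLBCL replicate 3 or TZL replicate 2. PSME2 was lower by 0.51 (adjusted p = 0.0372) and was not called when the array set was blocked or left out. It was the 1 call of 11 on the proteasome list, which had 0 calls without MZL replicate 3 or TZL replicate 4, 5, 6 or 8, and 2 without DLBCL replicate 5 or TZL replicate 3. The interferon list had 3 calls without MZL replicate 2 and 2 without DLBCL replicate 2 or 8.

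Within the B lineage none of the 10 genes passed between labels. All 10 were lower on average in DLBCL than in MZL, with a median difference of -0.31 beside -0.03 over all genes. However, 0 of 7500 genes were called in that comparison (0%) by limma, with 977 at unadjusted p under 0.05, 2 of them among the 10. With array weights 378 genes and 1 of the 10, TAPBP, passed.

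TAPBP ranged over 3.21, 4.32 and 5.28 in the 10 DLBCL dogs, against 4.90, 5.92, 4.96, 5.93 and 5.04 in the 5 MZL dogs. Below every MZL dog lay 9 of the 10 DLBCL dogs, and the highest DLBCL dog, at 5.28, lay among the MZL dogs. The level was below the minimum in 2 of the DLBCL dogs. The difference was -1.08 (SE 0.38, unadjusted p = 0.00751, adjusted p = 0.2). DLA88 ranged over 10.54, 12.64 and 13.59 in DLBCL dogs, against 12.92 to 13.70 in MZL dogs (-0.98, SE 0.47, unadjusted p = 0.0444, adjusted p = 0.366). Outside the array set the DLBCL dogs held 12.35 to 13.59, and the difference was -0.60 (adjusted p = 0.159). RNA quality moved with this comparison too, with the medians of the actin 3′ minus 5′ signal given above (7.34 in DLBCL and 5.16 in MZL dogs). Within subtypes TAPBP was lower by 0.26 and DLA88 by 0.32 for each unit of that measure (adjusted p = 6.64e-07 and 1.2e-06). Adjusted for the actin and GAPDH 3′ minus 5′ signals, the DLBCL minus MZL difference was -0.33 for TAPBP (adjusted p = 0.935) and -0.41 for DLA88 (adjusted p = 0.93).

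PSMB9 ranged over 8.55, 11.46 and 11.79 in DLBCL dogs, with DLBCL replicate 1 alone under 10, against 11.26 to 12.01 in MZL dogs. That dog also had the lowest NLRC5 of the series, at 3.68. The medians of the DLBCL dogs were 13.57 for B2M, 11.01 for TAP1, 8.96 for TAP2, 7.22 for ERAP1, 10.58 for PSMB8, 9.31 for PSMB10 and 4.73 for NLRC5, each below the MZL median of the same gene.

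The 2 BL dogs had 4.92 and 4.94 for NLRC5, inside the DLBCL range, and 13.66 and 13.90 for B2M. None of the 10 genes passed in BL against DLBCL, beside 0.0267% of all genes called, and 2 dogs limit this comparison. TAPBP was below the minimum in both BL dogs (3.68 and 3.93), and PSMB10 had 8.74 and 8.46, with 1 BL dog below the lowest DLBCL dog at 8.53. The 2 dogs had 12.82 and 13.01 for DLA88, 11.42 and 11.26 for TAP1, 9.44 and 9.27 for TAP2, 7.68 and 8.20 for ERAP1, 10.15 and 10.48 for PSMB8, and 11.46 and 11.60 for PSMB9.

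The step between grades was compared between the lineages, as the DLBCL minus MZL difference less the PTCL minus TZL difference. PSMB10 was the 1 gene of 10 called, beside 1.96% of all genes (0.747% higher and 1.21% lower). The step was -0.23 in B and -1.88 in T tumours, a gap of 1.65 (SE 0.44, adjusted p = 0.0407). The call was lost under 3 of 14 alternatives (adjusted p = 0.175 without the array set). It was also lost without any 1 of 15 dogs, with adjusted p up to 0.146: MZL replicates 1, 3, 4 and 5, DLBCL replicates 4, 5, 8 and 10, the DLBCL dog of replicates 6 and 7, TZL replicates 4, 5, 6 and 8, and PTCL replicates 2 and 3. PSMB8 had steps of -0.30 and -1.36, a gap of 1.06 (adjusted p = 0.145) that passed without LBT replicate 1 or PTCL replicate 4. NLRC5 had steps of -0.17 and -1.24, a gap of 1.07 (adjusted p = 0.306). Among the surrounding genes GBP5 (4.42), IFNGR1 (2.04) and EZH2 (-1.77) were called in this contrast. The macrophage marker CD14 was called as well (-2.42, adjusted p = 0.00699), with steps of -0.04 in B and 2.37 in T tumours, and it was the 1 called of 11 macrophage and dendritic markers. The mean over the 12 markers of that list ran from 3.47 to 6.66 in DLBCL and 4.53 to 6.29 in MZL dogs, and from 4.57 to 7.42 in PTCL and 2.94 to 7.08 in TZL dogs. CD14 itself was below 4 in all DLBCL and MZL dogs and in 7 of the 9 TZL dogs, but in none of the PTCL dogs. The part of these cells in the PSMB10 step was not tested.

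The relation of NLRC5 to the other 9 genes was computed across the dogs of each lineage. All 18 relations computed (9 genes in each of 2 lineages) had a positive Pearson r, beside 55.7% of all genes in B and 47.1% in T dogs. Of the 18 relations, 7 passed a two-sided permutation test after Benjamini-Hochberg adjustment over the 18. Adjusted instead over all 7499 other tested genes of a lineage, 0 of the 18 passed, beside 0% of all genes in B and 0.4% in T dogs. At unadjusted permutation p under 0.05, 4 of the 9 genes had a positive r in B dogs, beside 6.76% of all genes, and 5 of the 9 in T dogs, beside 8.23%. The median r was 0.37 over the 9 genes and 0.05 over all genes in B dogs, and 0.51 and -0.03 in T dogs. After subtraction of subtype means the unadjusted counts were 4 of 9 in B dogs, beside 8.75% of all genes, and 2 of 9 in T dogs, beside 5.25%. A positive r was then found for 9 of 9 genes in B dogs, beside 55.3% of all genes, and for 6 of 9 in T dogs, beside 48.8%. This background was computed after seeing the data, and the adjusted p below are over the 18.

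In the 17 B dogs r was 0.78 with B2M (rho 0.76, p = 0.00019, adjusted p = 0.0017), 0.76 with PSMB9 (rho 0.75, p = 0.00016, adjusted p = 0.0017), 0.67 with TAP1 (rho 0.73, p = 0.0031, adjusted p = 0.019) and 0.59 with PSMB10 (rho 0.64, p = 0.013, adjusted p = 0.046). All 4 relations held without the 2 dogs farthest from the median of NLRC5 (r 0.77, 0.75, 0.64 and 0.67), after subtraction of subtype means (0.82, 0.78, 0.70 and 0.71), and without the array set (0.76, 0.75, 0.72 and 0.59).

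In the 17 T dogs r was 0.63 with TAP1 (rho 0.73, p = 0.0063, adjusted p = 0.028), 0.57 with B2M (rho 0.64, p = 0.016, adjusted p = 0.048) and 0.56 with PSMB10 (rho 0.64, p = 0.019, adjusted p = 0.049). Without the 2 dogs farthest from the median these were 0.73, 0.58 and 0.64, and that with B2M missed the threshold. Without the array set they were 0.64, 0.57 and 0.49, of which that with TAP1 passed, while TAP2 (0.76, adjusted p = 0.012) and PSMB9 (0.74, adjusted p = 0.018) passed as well. After subtraction of subtype means they were 0.51 (adjusted p = 0.11), -0.01 and -0.07, so that none of the 3 passed within subtypes. TAP2 then had r = 0.60 (adjusted p = 0.037), against 0.51 (adjusted p = 0.075) before. For DLA88 r was 0.37 in B and 0.31 in T dogs, and 0.62 (adjusted p = 0.04) in B dogs without the array set. All these values come from the same arrays, so that NLRC5 and the other gene share each dog's RNA and mix of cells.

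**Figure D4:**
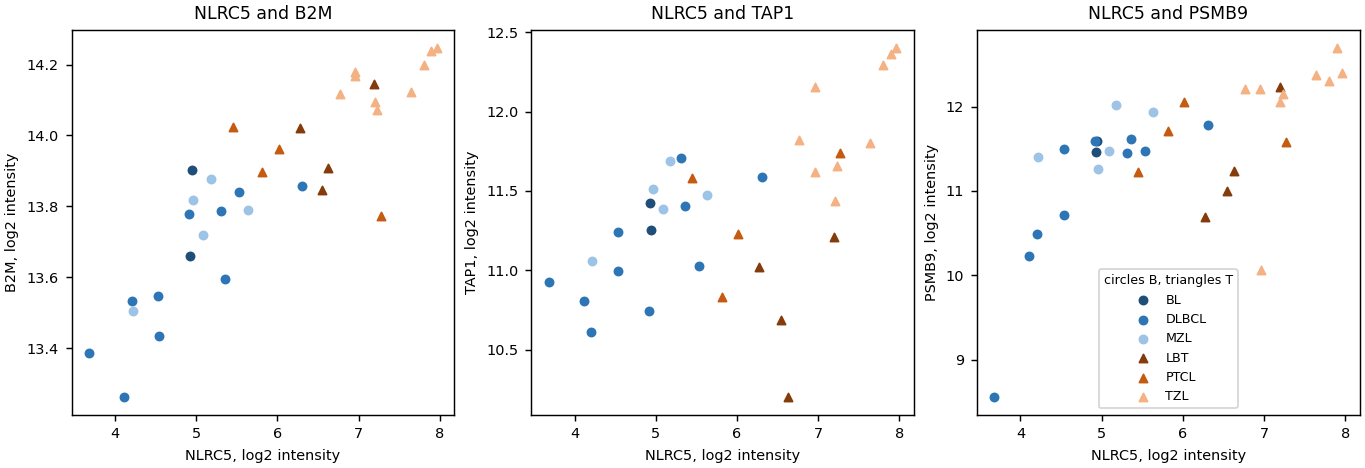
B2M, TAP1 and PSMB9 (vertical axes) against NLRC5 (horizontal axes), log2 intensity, 1 point per dog, circles for B and triangles for T labels. Over the 17 B dogs r is 0.78, 0.67 and 0.76, and the TZL dogs form the upper right of the B2M and TAP1 panels.

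Among themselves the 10 genes were linked to different degrees once subtype means were subtracted (34 dogs, Pearson r as a description). PSMB8 and PSMB10 had 0.72, TAP1 and TAP2 0.67, PSMB9 and NLRC5 0.65, TAP1 and NLRC5 0.59, and B2M and NLRC5 0.58. These 5 values were 0.74, 0.56, 0.69, 0.60 and 0.56 over the 28 dogs outside the array set, a computation added after seeing the data. PSMB8 and PSMB9, which sit in the same particle and close together in the genome, had 0.08 in both.

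Several pairs of DLA88 and ERAP1, both low in the array set, had other values without it, while that of DLA88 and TAP1 moved little. DLA88 had 0.64 with TAPBP, 0.62 with TAP1 and 0.61 with ERAP1 over the 34 dogs, and 0.45, 0.65 and 0.02 without that set. With PSMB8 and PSMB10 DLA88 had 0.21 and 0.44 over the 34 dogs, and 0.78 and 0.67 without it. ERAP1 had 0.49 with TAP1 and 0.49 with TAP2, and 0.28 and 0.34 without the set, while with PSMB8, PSMB9 and PSMB10 it had at most 0.03 over the 34 dogs.

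Outside the 10 genes, the tested genes of most similar pattern by the same measure were MARCHF2 for B2M (0.75), RPS27 for DLA88 (0.92), KIAA1191 for TAP1 (0.68), ABCD4 for TAP2 (0.79), WDR45B for TAPBP (0.86), TOR1AIP1 for ERAP1 (0.79), ZDHHC12 for PSMB8 (0.77), ZUP1 for PSMB9 (0.69), MCRS1 for PSMB10 (0.80) and TRIP10 for NLRC5 (0.72). IRF9, an interferon signalling factor, was among the 3 nearest for TAP1 (0.66). It was the 1 gene from the fixed lists among the 30 so named. The 3 nearest genes of DLA88 were also lower in the array set within subtypes: RPS27, which encodes a ribosomal protein, by 2.71 (adjusted p = 2.16e-12), TNFRSF14, the receptor HVEM, by 1.18 (adjusted p = 9.61e-06), and ZG16B by 5.84 (adjusted p = 1.91e-12). Over the 28 dogs outside that set their r with DLA88 was 0.17, 0.76 and 0.50, against 0.92, 0.90 and 0.90 over the 34 dogs. The 3 nearest genes of TAPBP and of ERAP1 were also lower in the array set, among them WDR45B (-1.12, adjusted p = 0.000201, limma) and TOR1AIP1 (-1.31, adjusted p = 0.000168). Without that set r was 0.76 for WDR45B with TAPBP and 0.49 for TOR1AIP1 with ERAP1. ABCD4 was not called in the set (-0.58, adjusted p = 0.106), and its r with TAP2 was 0.84 without it.

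Where the array set lay low within subtypes, it did so for DLA88 (-2.03), ERAP1 (-1.21, adjusted p = 0.00207), TAPBP (-1.17, adjusted p = 0.00109) and TAP2 (-0.52, adjusted p = 0.0218). B2M (0.02), PSMB8 (0.09), PSMB10 (-0.27), NLRC5 (-0.19), PSMB9 (-0.32) and TAP1 (-0.42, adjusted p = 0.0599) were not called. In the 28 dogs outside that set, the 6 TZL dogs had the highest DLA88, at 13.88 to 14.19, and the 5 MZL dogs (up to 13.70), the 3 PTCL dogs (up to 13.84) and the 8 DLBCL dogs (up to 13.59) all lay lower, while 1 LBT dog had 14.01. The order of the subtype means was otherwise uncertain for most genes: between neighbours in the order, the gap exceeded the larger SD only for TZL over the next subtype in B2M, TAP1, PSMB8, PSMB10 and NLRC5, for PTCL over MZL in NLRC5, and for DLBCL over BL in PSMB10.

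DLA88 also had a second probe set with an on or off pattern. Of the 34 tested dogs, 14 had at least 10 on the log2 scale, 19 had under 4 (the highest 3.02) and 1, TZL replicate 8, had 4.78. High values were found in 8 of 17 B dogs (1 of 2 BL, 4 of 10 DLBCL and 3 of 5 MZL) and in 6 of 17 T dogs (0 of 4 LBT, 1 of 4 PTCL and 5 of 9 TZL). The values had r = 0.26 with the first probe set over the 34 dogs, while the second probe sets of PSMB8 and B2M had 0.97 and 0.94 with theirs. DLA88 is highly polymorphic among dogs, and whether the probes match every allele was not tested. Averaging both probe sets gave other differences for DLA88, none of them called: 0.25 in place of -0.54 in B minus T, -2.94 in place of -0.02 in LBT minus TZL (adjusted p = 0.128), -2.14 in place of -0.56 in PTCL minus TZL (adjusted p = 0.376), -1.52 in place of -0.98 in DLBCL minus MZL, and 0.0733 in place of -0.04 in MZL minus TZL.

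**Figure D5:**
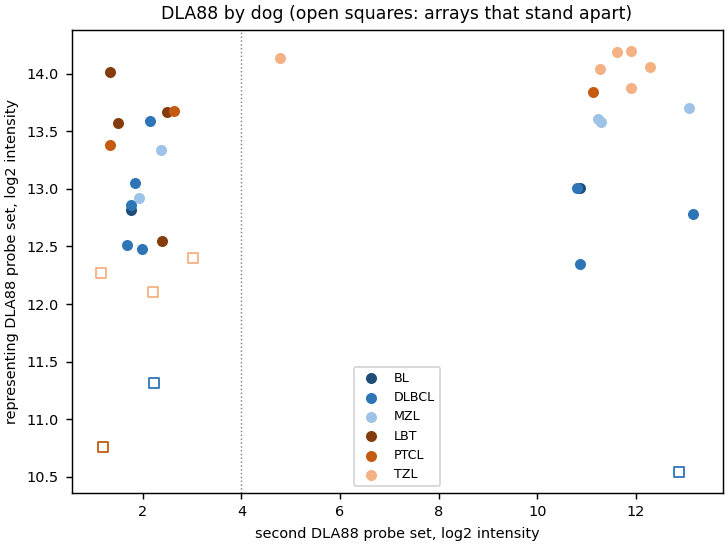
DLA88 in each of 34 dogs by the probe set that represents the gene (vertical axis) and by its second probe set (horizontal axis), log2 intensity. The second probe set separates 19 dogs under 4 from 14 dogs at 10 or more, and the open squares, the dogs of the array set, lie low on the vertical axis.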

How the data were processed

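Total RNA of tumour suspensions was hybridised as biotinylated cRNA, per the labels' protocols. The authors' deposited values are GCRMA intensities on a linear scale (GCRMA, per the submitters' processing notes, version not given in the sources used here). In its usual form GCRMA subtracts a background modelled on probe sequence and quantile-normalizes arrays together, which can compress low values. Intensities were floored at 1, put on the log2 scale and reduced to the brightest probe set per gene, and the 2 arrays of the repeated dog, which had r = 0.99 over the tested genes, were averaged. Genes needed a log2 value of 4 in 4 of 34 dogs. Differences were tested in R 4.3.3 with limma 3.58.1 (lmFit, eBayes, two-sided, Benjamini-Hochberg over 7500 genes, called under 0.05). B minus T used 2 group means, and the other contrasts used 6 subtype means. The fits were tested on simulated data. Levels are given for 5 or fewer dogs in replicate order. Correlations used 100000 permutations (scipy 1.17.1).

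The members and lists were chosen with earlier results of these data known. Named genes were all members, up to 4 called genes with the smallest p per list and contrast, same-step subunits, and the 3 genes most like each member. Some further called list genes (for example SEC61B, BLMH, FCGRT, CD1C, CD68 and KDR) were named after their values were seen. The number of arrays limits the precision. All columns of the table were mapped to samples.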

Additional observations from a re-analysis of the deposited data

Results flagged for a closer look

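In groups of 4 to 10 dogs, 1 dog stood far from the others of its subtype in 5 of 50 tests (10 genes in 5 subtypes). The cut-off flags about 1 in 20 where sets are independent and normally distributed. The 50 tests share dogs across genes, so whether 5 is more than chance gives cannot be told. DLA88 was 10.75 in PTCL replicate 3, a dog of the array set, with the nearest other PTCL dog at 13.38. PSMB9 was 10.06 in TZL replicate 2, also of that set, with the nearest other TZL dog at 12.06. PSMB9 was 8.55 in DLBCL replicate 1, with the next DLBCL dog at 10.23, and NLRC5 was lowest in the same dog at 3.68. PSMB8 was 8.54 in LBT replicate 1, with the next LBT dog at 10.17, and TAP1 and PSMB10 were lowest in this dog as well (10.20 and 6.92). TAP2 was 9.43 in MZL replicate 2, against 9.13 in the next MZL dog. The 1 gene whose step between grades differed between the lineages by the test of that difference was PSMB10, by 1.65 on the log2 scale.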

How the results depend on the processing

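PSMB8 and PSMB10 in LBT and PTCL against TZL, TAP1 in LBT against TZL, and NLRC5 and B2M in MZL against TZL kept their calls under all 14 alternatives and without any 1 dog. NLRC5 and B2M in B against T kept theirs in all but the array set alone (2 against 4 dogs; chosen after seeing the data), where 149 genes and 0 of the 10 were called.

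With array weights 6 of the 10 were called in B minus T, 1 in DLBCL minus MZL, 5 in MZL minus TZL and 8 in the F test. The block for the array set gave 5 in PTCL minus TZL, leaving that set out gave 8 in the F test, and fitting only the compared groups gave 5 in MZL minus TZL. For the grade step, 0 were called with no filter, with sex, breed and age as covariates or without the array set, and 2 with the actin and GAPDH 3′ to 5′ controls as covariates. Leaving out single dogs gave 0 to 2 there and 2 to 5 in MZL minus TZL.

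Of all genes, DLBCL minus MZL had 17 calls with the stricter filter at 6, 39 with values under 4 set to 4, 378 with array weights, 13 with probe set means, 24 with the first repeat array, 19 without the array set, and 0 to 68 without single dogs. BL minus DLBCL had 6 with no filter, 1 with the stricter filter or quantile normalization, 11 with the floor at 4, 12 with array weights, 0 with probe set means, 5 without the array set or with the control covariates, and 1 to 12 without single dogs. LBT minus PTCL had 33, 96, 4, 0, 82 and 80 with the stricter filter, the floor at 4, the sex, breed and age covariates, the compared groups only, the block and the control covariates, and 11 to 180 without single dogs. PTCL minus TZL had 556 without the array set and 587 to 1088 without single dogs. The grade step had 42 without the array set, 240 with the control covariates and 61 to 281 without single dogs.

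Of the NLRC5 relations, 0 passed adjusted over all tested genes of a lineage, against 7 adjusted over the 18 (chosen after seeing the data).

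Signs turned for DLA88 in B minus T (0.25 with probe set means), in LBT minus TZL (0.0207 centred on medians, 0.039 with quantile normalization), and in MZL minus TZL (0.0733 with probe set means). PSMB8 in B minus T was 0.0754 with the control covariates. Leaving out single dogs gave DLA88 -0.21 to 0.28 in LBT minus TZL, -0.21 to 0.0844 in MZL minus TZL and -0.87 to 0.16 in PTCL minus TZL. The cause was not tested. Of 51 further differences of the 10 genes, 17 turned sign under an alternative, none was called under one and 1 was called without 1 dog. List counts with the array set blocked or left out were added after seeing the data.

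No paired analysis was possible because the replicate numbers name different dogs in each group. Values under 4 (TAPBP, the second probe sets of NLRC5 and PSMB10) and near the top of the scale (B2M) limit what the arrays resolve. With 2 to 4 dogs in BL, LBT and PTCL, differences that missed the threshold are not shown to be absent.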

Other observations

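The single NBNT dog, whose tumour is labelled as neither B nor T, had class I levels inside the ranges of the 9 TZL dogs for all genes but DLA88. NLRC5 was 7.17, B2M 14.21, PSMB8 11.53, PSMB10 10.18 and TAP1 12.12, each inside the TZL range. Of these, B2M, PSMB8, PSMB10 and TAP1 lay above every dog of the other subtypes, while NLRC5 lay inside the LBT and PTCL ranges as well. TAP2 was 9.42, TAPBP 4.84, ERAP1 6.88 and PSMB9 11.82, each inside the TZL range and inside those of other subtypes too. DLA88 was 14.26, above all 34 tested dogs. Its T-cell markers averaged 10.79, inside the range of the T dogs (9.12 to 11.55), and its B-cell markers averaged 7.44, below the lowest B dog (7.75) and inside the T range. These are values of 1 dog with no replicate, and no test was made.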
